A study of Mus musculus with 4 samples.

Results

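Cells positive for Eln and Colec10 were examined among cultured mesenchymal progenitor cells (MPC) of the mouse line C3H 10T1/2, profiled one by one by droplet RNA sequencing. A cell counted as positive when it held at least 5 unique molecular identifiers (UMIs, 1 for each RNA molecule captured) of Eln and at least 2 of Colec10. This held for 1926 of the 22049 cells that had at least 5000 UMIs, at least 1500 genes and at most 20% mitochondrial UMIs. The counts of Eln and Colec10 chose these cells, so the levels of those genes in them are a description and were not tested. The cells compared with them within each library, called negative here, were the 8769 kept cells without a UMI of either gene, and the remaining 11354 cells lay between the classes.

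There were 4 libraries, 1 for each condition: H3WT with DMSO, H3WT with 5-Aza, H3R26C with DMSO and H3R26C with 5-Aza. H3WT and H3R26C cells both carried a lentiviral, epitope-tagged histone H3 transgene under the EF1 promoter with puromycin selection, either wild type or with arginine 26 changed to cysteine, so the H3WT controls were transgenic as well. 5-Aza is 5-azacytidine, a DNA methyltransferase inhibitor given briefly to start differentiation into several mesenchymal lineages, and DMSO is its vehicle. The day on which DMSO cells were collected is not given in the sources used here, so treatment and time in culture cannot be told apart. With 1 library a condition, conditions were compared as values without a test, whereas positive and negative cells of the same library gave 4 paired differences that were tested across the libraries. Lists of 4 values follow the order H3WT DMSO, H3WT 5-Aza, H3R26C DMSO and H3R26C 5-Aza throughout.

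Elastic fibres are built on a scaffold of fibrillin microfibrils, onto which the soluble precursor tropoelastin, the product of Eln, is deposited with the help of fibulins and crosslinked by lysyl oxidases. Colec10 encodes collectin liver 1, a secreted lectin of the complement lectin pathway that is also made by mesenchymal cells. Among the other markers of these cells, Mfap5 encodes a microfibril-associated glycoprotein, Smoc2 a calcium-binding matricellular protein and Pcolce2 an enhancer of procollagen C-proteinase, which trims fibrillar procollagens. Fibroblasts of the adventitia and other connective tissue sheaths are known for making such matrix.

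On the GRCm38 build the protein-coding genes lie apart: Eln at chr5:134702593-134747323 on the minus strand, and on the plus strand Colec10 at chr15:54410774-54466358, Mfap5 at chr6:122505845-122529290, Smoc2 at chr17:14279506-14404790 and Pcolce2 at chr9:95637601-95698096. Of the markers, 1 of 5 had an entry among the RefSeq promoter sequences used here (GRCm38.p6, 250 bases before to 50 after the start of a gene), namely Pcolce2. Its promoter, chr9:95637378-95637677 on the plus strand, is shown because 5-Aza acts on methylation of the dinucleotide CG, printed in capitals and palindromic, so that a match on one strand is a match on the other. The promoter of Sfrp2, chr3:83766071-83766370 on the plus strand, is shown beside it as that of the gene with the highest log2 ratio after Mfap5 among the genes named by the rule used here.
Pcolce2: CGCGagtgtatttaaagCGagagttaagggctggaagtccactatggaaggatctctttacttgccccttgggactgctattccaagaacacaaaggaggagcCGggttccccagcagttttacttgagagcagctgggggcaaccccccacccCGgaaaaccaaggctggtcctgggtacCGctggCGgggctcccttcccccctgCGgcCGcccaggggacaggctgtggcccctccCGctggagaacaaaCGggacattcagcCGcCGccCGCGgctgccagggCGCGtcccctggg
Sfrp2: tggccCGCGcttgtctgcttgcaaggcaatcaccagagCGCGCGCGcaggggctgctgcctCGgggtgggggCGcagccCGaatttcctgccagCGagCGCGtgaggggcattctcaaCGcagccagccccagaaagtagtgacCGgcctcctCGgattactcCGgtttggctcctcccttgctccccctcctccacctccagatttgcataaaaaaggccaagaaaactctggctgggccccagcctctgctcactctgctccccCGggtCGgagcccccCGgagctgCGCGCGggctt
The Pcolce2 window holds 17 CG and the Sfrp2 window 22, where the median of the 32851 promoters in the table is 7. As many CG as in Pcolce2 were found in 31.4% of all promoters, and as many as in Sfrp2 in 23.1%. These are letter counts in the reference, and methylation was not measured in these libraries.

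The depth of the classes differed. Positive cells held 25592, 14733, 20814 and 14533 UMIs per cell at the median, against 18997, 12221, 15950 and 12721 in negative cells, and a count threshold is met more easily at greater depth. The positive cells of a library summed to 24695292, 10803592, 5080605 and 993708 UMIs, so the 63 cells of H3R26C with 5-Aza give the least precise values. Eln ranged from 5 to 454 UMIs per positive cell, with medians of 13, 14, 10 and 10, and Colec10 from 2 to 72, with medians of 7, 4, 6 and 4. As CPM, the usual counts of a gene scaled to a common total of UMIs within a library and class, Eln was at 858, 1722, 772 and 1123 and Colec10 at 389.6, 386, 434 and 349 in positive cells. Between 24 and 58 barcodes were shared by the kept cells of any 2 libraries, and 1 barcode was shared among the positive cells.

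Positive cells were most frequent in H3WT with DMSO and least frequent in H3R26C with 5-Aza. They made up 932 of 3710 kept cells in H3WT DMSO, or 25.1% (exact binomial 95% interval 23.7% to 26.5%, counting error only). In H3WT 5-Aza they were 694 of 5993 cells, 11.6% (10.8% to 12.4%), in H3R26C DMSO 237 of 4727, 5.01% (4.41% to 5.67%), and in H3R26C 5-Aza 63 of 7619, 0.827% (0.636% to 1.06%). Because shares rise with depth, and H3WT DMSO was the deepest library with a median of 22420 UMIs per kept cell against 13149, 16598 and 13123 in the other libraries, every cell was also thinned at random to 5000 UMIs. The gate then held for 3.61%, 3.12%, 0.804% and 0.184% of the cells. The intervals of H3WT DMSO (3.03% to 4.26%) and H3WT 5-Aza (2.69% to 3.59%) overlapped after thinning, and the share in each H3R26C library was below both. With 1 library a condition, intervals over cells do not order the conditions. At least 1 UMI of each gene after thinning was found in 22.5% (21.1% to 23.9%), 16.4% (15.4% to 17.3%), 7.68% and 1.71% of cells. Cells without a UMI of either gene took the opposite course, with 10.7%, 23.2%, 39.0% and 67.4% before thinning and 28.8%, 38.0%, 61.3% and 80.7% after it.

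**Figure D1:**
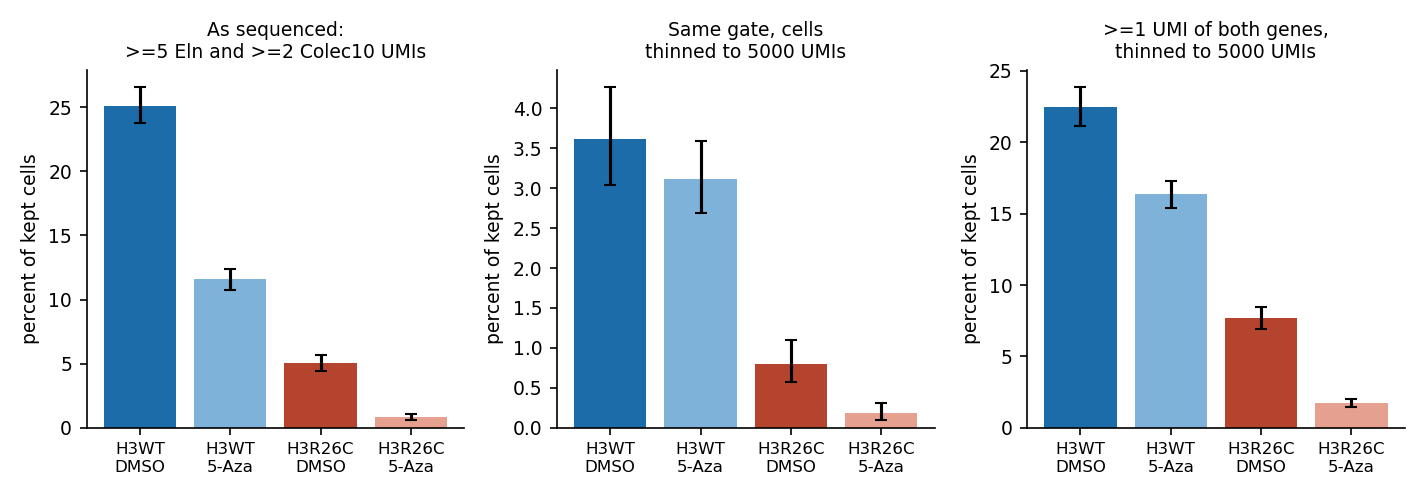
Percent of kept cells (y axis) in each of the 4 libraries (x axis) that met the gate as sequenced, met it after thinning to 5000 UMIs, or held at least 1 UMI of both genes after thinning, with exact binomial 95% intervals as error bars for counting error only. The bars run from 25.1% to 0.827% as sequenced, and those of the H3WT libraries overlap in the middle panel.

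Free RNA can put UMIs into cells that do not express a gene. Cells with at least 1% of their UMIs from a list of skeletal muscle genes served as the comparison type, and they were found only in the 5-Aza libraries. Of the 175 such cells in H3WT 5-Aza, 30.3% had a UMI of Eln and 18.9% one of Colec10 at a median of 13630 UMIs, against 67.7% and 43.3% of cells gated as neither muscle nor adipocyte at a median of 13122. Of the 233 muscle-gated cells in H3R26C 5-Aza, 9.01% had a UMI of Eln and 3.86% one of Colec10 at a median of 18805 UMIs, against 26.8% and 10.9% at 13039. After thinning these shares were 20% and 9.14% against 51.0% and 29.2% in H3WT 5-Aza, and 1.72% and 1.29% against 15.3% and 6.27% in H3R26C 5-Aza. The full gate held for 9 of the 175 (5.14%) against 11.8% of the other cells, and for 0 of the 233, which allows up to 1.29%, against 0.856%, so no difference was detectable in H3R26C 5-Aza. Adipocyte-gated cells, with a UMI of at least 3 of 8 fat genes, gave higher shares of cells with a UMI of Eln and were the only such comparison with DMSO. A UMI of Eln was found in 71.4% of 35, 53.1% of 64, 30.8% of 26 and 21.7% of 23 of them and one of Colec10 in 20%, 21.9%, 7.69% and 4.35%, and 4, 3, 0 and 0 met the gate, or 11.4% in H3WT DMSO and 4.69% in H3WT 5-Aza, while the counts of 0 in the H3R26C libraries allow up to 11.5% with DMSO and 13.0% with 5-Aza. UMIs of these genes were therefore frequent outside the positive cells, and the part of free RNA in them was not tested.

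Markers that the gate did not use were high in the same cells. Mfap5 was at 401, 500.4, 465 and 391 CPM in positive cells and at 32.3, 80.1, 30.3 and 15.9 CPM in negative cells. Smoc2 was at 759, 731, 672 and 322 CPM against 230.4, 321, 354 and 84.9 CPM, and Pcolce2 at 646, 624, 625 and 366 CPM against 150.3, 192, 169 and 70.8 CPM. Each was higher in positive cells in 4 of 4 libraries. For Smoc2 the classes overlapped across libraries, since H3R26C 5-Aza was low in both classes. The log2 ratio of positive over negative cells, from the quasi-likelihood test of edgeR on counts summed per library and class with library as a term and p-values adjusted by Benjamini-Hochberg over all genes, was 3.72 ± 0.26 (SE, n = 4 libraries), adjusted p = 4.44e-05, for Mfap5. It was 1.45 ± 0.15 (SE, n = 4 libraries), adjusted p = 0.000326, for Smoc2, and 2.03 ± 0.10 (SE, n = 4 libraries), adjusted p = 1.49e-05, for Pcolce2. These ratios correspond to 13.1-fold, 2.73-fold and 4.10-fold higher levels. In cells drawn alike from bins of depth, which left median depths close in 3 libraries and at 14533 against 13172 UMIs in H3R26C 5-Aza, the log2 ratios were 3.59, 1.46 and 2.00. The size depended on the cells compared, with 3.08, 1.05 and 1.36 when the gate was applied after thinning, 2.01, 0.69 and 1.04 against all cells that were not positive, and 1.49, 0.38 and 0.67 against the cells between the classes. After thinning, at least 1 UMI of all 3 of these markers was found in 57.8, 54.3, 57.4 and 39.7% of positive cells and in 5.29, 10.7, 5.43 and 1.07% of negative cells, and without thinning in 87.0, 83.7, 86.1 and 63.5% and 16.1, 19.8, 14.1 and 3.74%.

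Across the 12770 genes tested, 1069 were higher in positive cells (8.37%) and 1241 were lower (9.72%) at an adjusted p under 0.05 by edgeR. Of these 2310 genes, 2182 had the same sign of difference in all 4 libraries, and more than 2-fold differences were found for 230 higher and 416 lower genes. The percentages of 8.37% and 9.72% are the background against which the counts of each gene list are read, together with the median log2 ratio of all genes tested, -0.0043. Since the gate selected cells on 2 genes, these differences describe which genes varied together with Eln and Colec10 between cells of the same library.

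**Figure D2:**
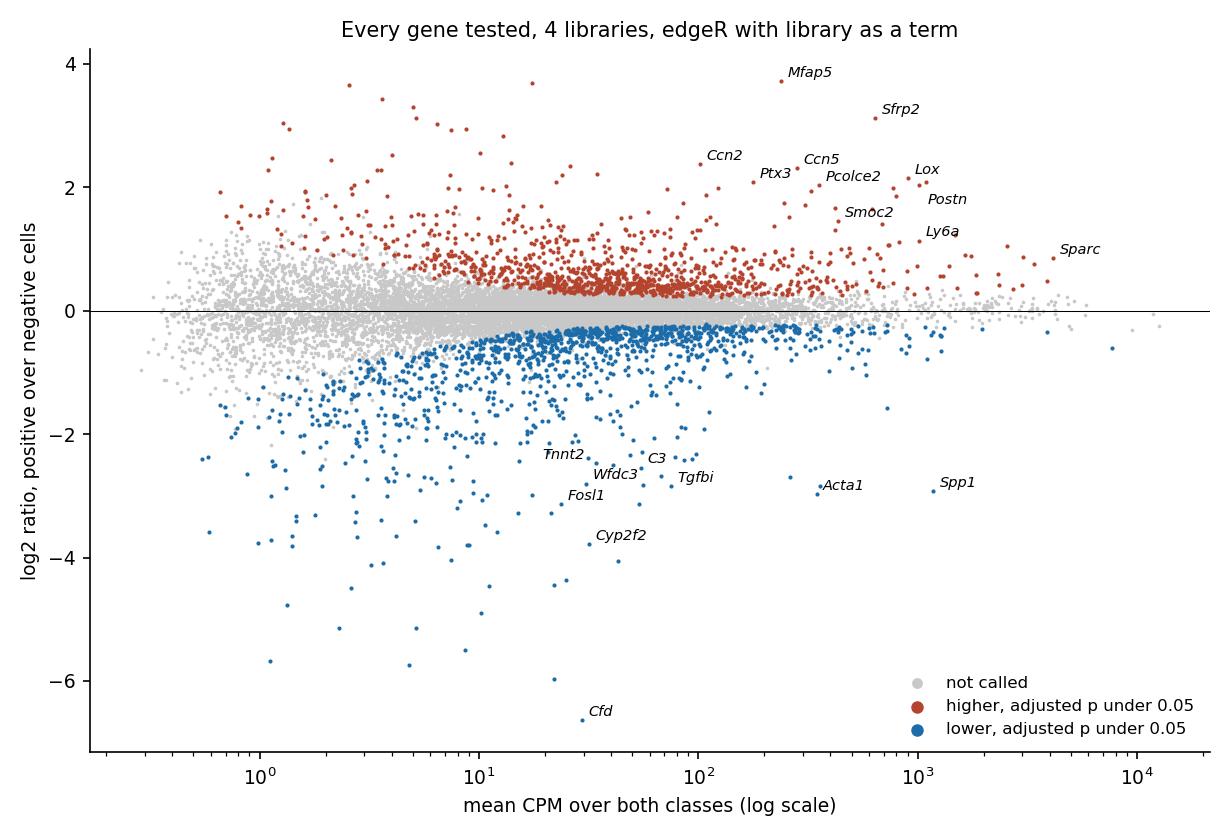
Log2 ratio of positive over negative cells (y axis) against the mean CPM of both classes (x axis, log scale) for each of the 12770 genes tested. Red and blue points are genes called higher and lower, grey points were not called, and Mfap5 and Sfrp2 stand at the top and Cfd at the bottom of the named genes.

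Genes of the elastic fibre were mostly higher in positive cells. Apart from Eln, 16 genes of this list were tested, of which 10 were higher, 3 lower and 3 not called, with a median log2 ratio of 0.66. Besides Mfap5, the fibrillins Fbn1 and Fbn2, which form the microfibril, were at 225, 458, 319 and 419.6 CPM against 114, 226, 177 and 202 CPM and at 102, 109.7, 149 and 96.6 CPM against 30.1, 42.0, 26.6 and 21.6 CPM. Fbln5, a fibulin needed for elastic fibre assembly, was at 1556, 1661, 1728 and 2059 CPM in positive and 462, 603, 363 and 302 CPM in negative cells, a log2 ratio of 2.08 ± 0.18 (SE, n = 4 libraries), adjusted p = 0.000128. The other members that were higher were Mfap4, Fbln2, Efemp2, Emilin2 and the latent TGF-beta binding proteins Ltbp1 and Ltbp3, with log2 ratios from 0.35 to 0.95. Not all members went this way, since the fibulins Fbln1 (-1.15) and Efemp1 (-1.20) and the elastic fibre interface protein Emilin1 (-0.78) were lower. With the cells between the classes in place of the negative cells, 8 members were higher and 3 lower, at a smaller median of 0.18, and without the library term 6 were higher and 1 lower.

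Of the crosslinking and collagen-processing enzymes, 4 of 16 were higher and 4 lower, with a median log2 ratio of 0.04. Lox, the lysyl oxidase that crosslinks elastin and collagen, was at 1117, 1341, 1419 and 2043 CPM against 283, 351, 384 and 312 CPM, a log2 ratio of 2.15 ± 0.13 (SE, n = 4 libraries), adjusted p = 2.61e-05. Its relative Loxl1, which acts on elastin, was higher by 1.01 on the log2 scale, as were Pcolce2 and the procollagen C-proteinase Bmp1 (0.61). The lower members were the collagen lysyl and prolyl hydroxylases Plod1 (-0.61), Plod2 (-0.37) and P4ha1 (-0.29) and Pcolce, the paralog of Pcolce2, at 310.1, 457, 286 and 598 CPM against 594, 750.2, 708 and 924 CPM (-0.87 ± 0.11 (SE, n = 4 libraries), adjusted p = 0.00104). The enhancer genes Pcolce and Pcolce2 thus differed in opposite directions in 4 of 4 libraries.

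Matricellular genes, whose secreted products signal from the matrix, divided into a larger group that was higher and a smaller group that was lower. Of 15 tested, 8 were higher and 5 lower, with a median of 0.85, which was 0.24 against the cells between the classes, 0.34 against all cells that were not positive and 0.53 without H3WT DMSO. Without the library term 3 were higher and 1 lower. Postn, encoding periostin, was at 1296, 1678, 1779.7 and 1746 CPM against 352, 479.8, 383 and 403 CPM (2.03 ± 0.09 (SE, n = 4 libraries), adjusted p = 9.65e-06), and Sparc at 5267, 4980.4, 5470.2 and 5479 CPM against 3074, 2938, 3327 and 2677 CPM (0.85 ± 0.09 (SE, n = 4 libraries), adjusted p = 0.000311). Of the CCN family, Ccn2 (2.37), Ccn5 (2.31), Ccn3 (1.99) and Ccn1 (0.93) were higher and Ccn4 (-0.43) was lower. Ccn3 varied between libraries, with 820.4, 1137, 1015 and 1687 CPM in positive cells but 179.7, 274, 862 and 171 CPM in negative cells, so the classes were close in H3R26C DMSO and far apart in the others. Thbs2 and Smoc2 completed the higher members. Spp1, encoding osteopontin, was the member with the lowest ratio, at 81.0, 266, 70.1 and 793 CPM in positive cells against 798, 1256, 819 and 5341 CPM in negative cells, a log2 ratio of -2.92 ± 0.20 (SE, n = 4 libraries), adjusted p = 4.03e-05. Spp1 was lower in positive cells in 4 of 4 libraries although its level differed between libraries in both classes. Without the library term the ratios of Spp1 (-2.78) and Ccn2 (2.25) were about as large but not called (edgeR adjusted p = 0.18 and 0.0687). Tnc (-1.44), Mgp, an inhibitor of calcification (-1.05), and Sparcl1 (-0.71) were lower as well.

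**Figure D3:**
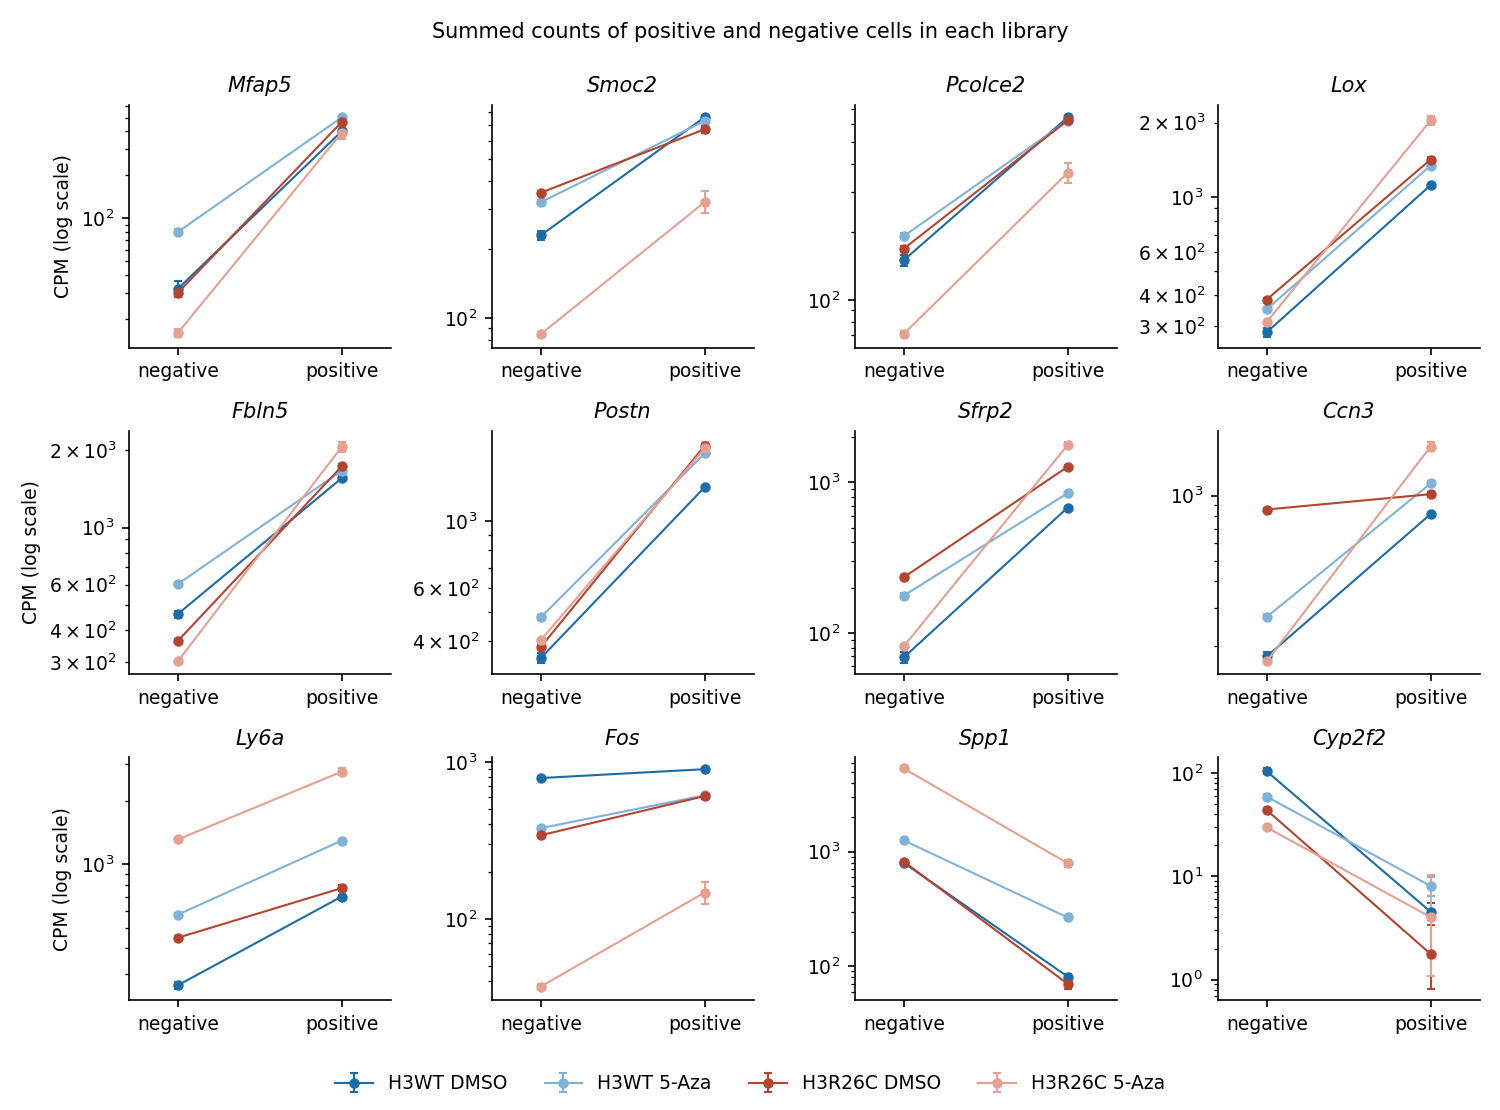
Level in CPM (y axis, log scale) of 12 genes in the negative and positive cells (x axis) of each library, with 1 line per library and exact Poisson 95% intervals for counting error. Lines climb from negative to positive cells in every library for the first 10 genes and descend for Spp1 and Cyp2f2, and Ccn3 is nearly level in H3R26C DMSO.

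Collagens were divided. Of 17 collagen genes tested, 7 were higher, 3 lower and 7 not called, with a median of 0.25. Col3a1 was at 3249.9, 4293, 3607 and 4344 CPM against 2013, 2613, 1695 and 2363 CPM (0.87 ± 0.09 (SE, n = 4 libraries), adjusted p = 0.000311), and Col1a1 (0.41), Col1a2 (0.59), Col5a1 (0.87), Col5a2 (0.64), Col5a3 (0.93) and Col15a1 (0.94) were higher too, whereas the fibrillar Col11a1 (-1.36), Col8a1 (-1.41, with no UMI in the positive cells of either DMSO library) and Col18a1 (-1.16) were lower. Against the cells between the classes the collagen count was 3 higher and 3 lower, at a median of 0.05. Of the small leucine-rich proteoglycans, and with them Dpt, 3 of 10 were higher (Dcn, Ogn and Dpt) and 2 lower (Fmod and Aspn), with a median of 0.05. Dcn, encoding the collagen-binding decorin, was at 873, 1556, 1871 and 2632 CPM against 616, 1322, 936 and 1279 CPM. Of 12 matrix proteases and inhibitors, 3 were higher, among them the aggrecanase Adamts5 at 513, 529, 537 and 476 CPM against 145, 183, 143 and 90.3 CPM (1.93 ± 0.12 (SE, n = 4 libraries), adjusted p = 2.61e-05) and the metalloproteinase inhibitors Timp2 (0.35) and Timp3 (0.88), and 2 were lower, Mmp3 and Timp1, at a median of 0.26. Of the collectin and complement genes other than Colec10, 2 of 13 were higher (C1ra and C1s1, proteases of the first complement component) and 3 lower, among them C3 and Cfd, with a median of 0.12.

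As a check of the word progenitor, 14 markers of mesenchymal progenitors and stromal cells were tested, of which 5 were higher, 2 lower and 7 not called, with a median of 0.12, and Nt5e and Dpp4 had no UMI in positive cells. Ly6a, encoding the stem cell antigen SCA-1, was at 703, 1297, 771 and 2760.4 CPM against 266, 577, 448 and 1314 CPM (1.13 ± 0.11 (SE, n = 4 libraries), adjusted p = 0.000219), higher in 4 of 4 libraries. Prrx1, a transcription factor of limb and craniofacial mesenchyme, was at 915, 894, 1085 and 1058 CPM against 458, 464, 528 and 472 CPM (1.06 ± 0.07 (SE, n = 4 libraries), adjusted p = 4.01e-05). Thy1 (1.28), Pi16 (1.18) and Pdgfrb (0.68) were higher, and the adhesion genes Cd44 (-1.18) and Vcam1 (-0.81) lower. The classes overlapped across libraries for Ly6a, with up to 1314 CPM in the negative cells of H3R26C 5-Aza. With 7 of the 14 markers not called and 2 lower, the cells are called by their gate here.

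Signalling genes differed by member. In the TGF-beta and BMP list 6 of 16 were higher, 4 lower and 6 not called, with a median of 0.28. The ligand Bmp4 was at 86.0, 75.1, 71.8 and 109.7 CPM against 32, 33.1, 30.9 and 48.5 CPM (1.28 ± 0.08 (SE, n = 4 libraries), adjusted p = 2.75e-05), the receptor Tgfbr2 (0.73), the inhibitory Smad6 (1.12) and Smad7 (1.09) and the target Id3 (0.43) were among those that were higher. The ligand Tgfb1 (-0.58), the BMP antagonist Grem1 (-1.52), the BMP modulator Bmper (-0.75) and the target Id1 (-0.99) were lower, so that Id1 and Id3, both targets of BMP signalling, differed in opposite directions. Of 12 Wnt genes, 3 were higher and 4 lower, with a median of -0.18. Sfrp2, a secreted Wnt modulator, was at 680.3, 849, 1271 and 1771 CPM against 68.8, 177, 234 and 81.6 CPM (3.12 ± 0.32 (SE, n = 4 libraries), adjusted p = 0.000296), and Wnt5a and Fzd2 were higher as well, while Dkk2, Lef1, Rspo3 and Fzd1 were lower. In the Notch list 1 of 7 was higher, the ligand Jag1 (0.82), and 3 were lower, Notch1 (-0.73) and the targets Hes1 (-1.63) and Heyl (-1.85), with a median of -0.63. Of 10 genes of the insulin-like growth factor axis, Igf1r and Igfbp2 were higher and Igfbp3, Igfbp5 and Igfbp6 lower, with a median of 0.09. Igfbp5 was lower in 3 of the libraries and not in H3R26C 5-Aza, with 116, 291, 369.8 and 939.9 CPM in positive and 626, 1399, 1224 and 815 CPM in negative cells.

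Immediate early genes, which respond within minutes to growth factors and stress, including that of dissociation, were higher in 10 of 19 cases and lower in 1, with a median of 0.45. Fos was at 901, 613, 607 and 147 CPM in positive and 791, 379, 341 and 36.9 CPM in negative cells (0.88 ± 0.21 (SE, n = 4 libraries), adjusted p = 0.0213), and Jund at 1441, 1361, 1131 and 858 CPM against 1196, 952, 543 and 453 CPM (0.72 ± 0.12 (SE, n = 4 libraries), adjusted p = 0.00389). Fosb, Fosl2, Egr1, Ier2, Zfp36, Klf4, Klf6 and Dusp1 were the other members that were higher. Fosl1, encoding the AP-1 subunit FRA-1, was lower, at 2.47, 3.52, 5.51 and 9.06 CPM against 31.0, 26.2, 38.9 and 73.1 CPM (-3.13 ± 0.15 (SE, n = 4 libraries), adjusted p = 9.71e-06). Without H3WT 5-Aza the list held 7 higher members, with all cells that were not positive as the comparison 4, and without the library term 1. Heat shock and stress genes, measured beside them, gave 1 of 9 higher (Dnajb1) and 1 lower (Ddit3), with a median of 0.10, and the part of cell handling in the immediate early genes was not tested.

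Interferon-stimulated genes were higher in 7 of 18 cases and lower in 1, with a median of 0.33. Bst2, encoding the antiviral membrane protein tetherin, was at 123, 265, 173 and 864 CPM against 83.0, 168, 121 and 555 CPM (0.62 ± 0.07 (SE, n = 4 libraries), adjusted p = 0.000453), and Ifit1, Isg15, Usp18, Stat2, Ifi47 and Rtp4 were higher by 0.37 to 0.80. Ifi27l2a was lower (-0.82). Isg15 and Usp18 were higher in 3 of the libraries and the other higher members in 4 of 4. Without cells holding a UMI of Mki67 or Top2a 3 members were higher, and without H3WT 5-Aza or without H3R26C 5-Aza 4 were. Without the library term 0 were called in either direction.

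**Figure D4:**
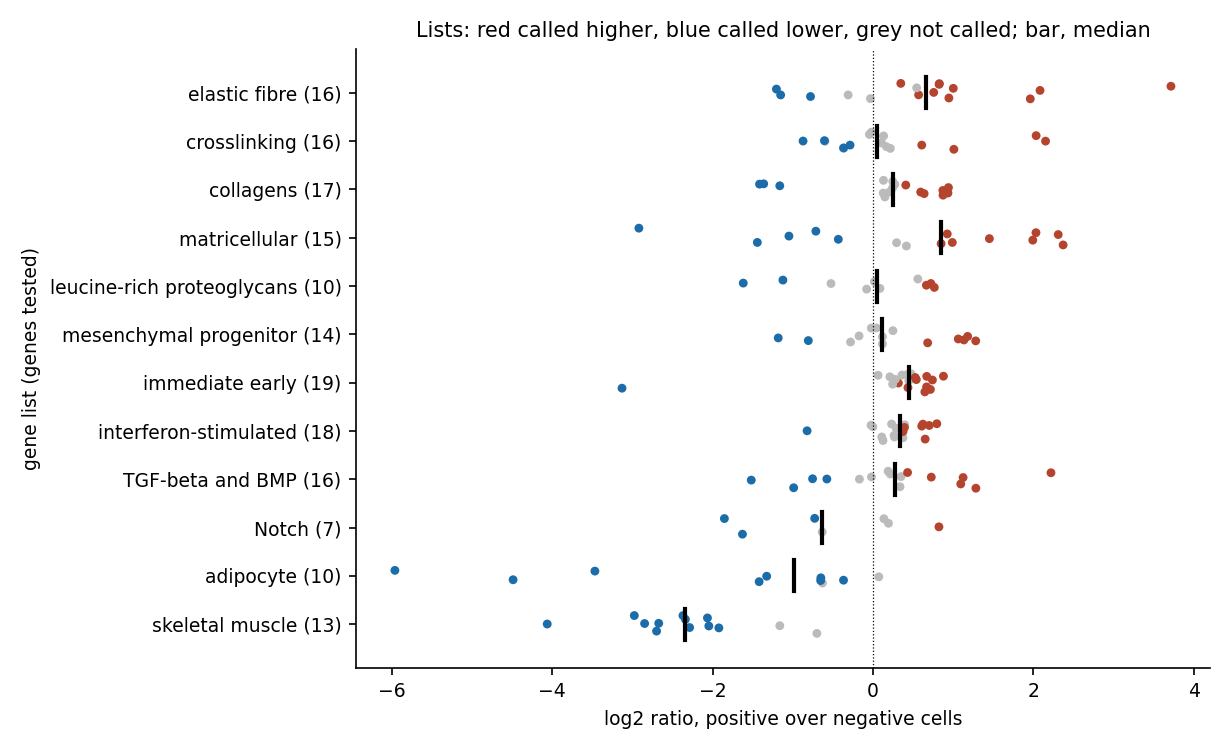
Log2 ratio of positive over negative cells (x axis) for the tested genes of 12 lists (y axis), 1 point per gene, with the number of genes tested in brackets, red points called higher, blue points lower, grey points not called, black bars for medians and a dotted line for the median of all genes tested. Elastic fibre and matricellular genes lie mainly to the right, adipocyte and skeletal muscle genes to the left.

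Ptx3, a secreted pattern recognition protein, was also among the 10 highest ratios under the naming rule, at 283, 266, 232 and 363 CPM against 80.1, 90.7, 53.6 and 52.4 CPM (2.08 ± 0.16 (SE, n = 4 libraries), adjusted p = 8.37e-05).

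The genes with the lowest ratios included several of fat cells and complement. Cfd, encoding the adipocyte-secreted complement factor D, had 26 UMIs in all positive cells, at 0.648, 0.648, 0.59 and 0 CPM, against 47.6, 104, 72.8 and 9.14 CPM in negative cells (-6.64 ± 0.18 (SE, n = 4 libraries), adjusted p = 4.33e-07). C3, the central complement component, was at 6.07, 30.1, 11.4 and 23.1 CPM against 48.8, 136, 88.9 and 94.4 CPM (-2.54 ± 0.16 (SE, n = 4 libraries), adjusted p = 2.86e-05). Cyp2f2, a cytochrome P450, was at 4.54, 8.05, 1.77 and 4.03 CPM against 103, 58.8, 43.7 and 29.6 CPM (-3.78 ± 0.28 (SE, n = 4 libraries), adjusted p = 6.07e-05). Tgfbi (-2.84), encoding a TGF-beta-induced matrix protein, Wfdc3 (-2.80), a gene with whey acidic protein domains, and Hmga1 (-2.83), encoding an architectural chromatin protein of proliferating cells, were lower as well. The naming rule took only genes with the same sign in all 4 libraries, so that agreement was set by the choice of these genes. The ratio of Hmga1 was -1.34 without cells holding a UMI of Mki67 or Top2a.

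Differentiated cells were rare among the positive cells. Of 13 skeletal muscle genes tested, 0 were higher and 11 lower, with a median of -2.34, and the list of 18 summed to 37.1, 1003, 27.0 and 579 CPM in positive and 23.5, 7358, 24.9 and 4007 CPM in negative cells. Ttn was its most abundant gene, at 0.324, 241, 0 and 90.6 CPM against 0.238, 1696, 0.063 and 834 CPM, so the list was nearly absent from both DMSO libraries in either class. Muscle-gated cells were 0, 9, 0 and 0 of the positive and 0, 108, 0 and 206 of the negative cells, and when they and the adipocyte-gated cells were left out the list had 2 higher and 1 lower member at a median of 0.10. The muscle gate uses the counts of this same list, so a smaller difference without the gated cells follows from the gate. Without H3WT 5-Aza 2 of 8 tested members were lower, and without H3R26C 5-Aza 6 of 8. The muscle genes Acta1 (-2.98) and Tnnt2 (-2.47), which the naming rule placed among the lowest ratios, were at 0.17 and -0.34 with the gated cells left out and no longer called (edgeR adjusted p = 0.382 and 0.348). DESeq2 called 6 of the 13 lower, and edgeR without the library term 0.

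Of 10 adipocyte genes tested, 0 were higher and 8 lower, with a median of -0.99. Adipoq, encoding adiponectin, was at 1.13, 0.648, 0 and 1.01 CPM in positive and 51.2, 73.7, 33.5 and 14.4 CPM in negative cells (-5.96 ± 0.27 (SE, n = 4 libraries), adjusted p = 9.65e-06), and the list of 14 summed to 231, 297, 229 and 399 CPM against 416, 778, 417 and 311 CPM, with Fabp4 the most abundant gene. Adipocyte-gated cells were 4, 3, 0 and 0 of the positive and 10, 27, 17 and 17 of the negative cells. Without the gated cells 1 of 8 tested genes was higher and 2 were lower, at a median of -0.22, and Cfd did not pass the count filter in that setting. The adipocyte gate uses genes of this list, so a smaller difference there follows from the gate. In depth-matched cells 4 of 8 were lower (median -0.64), without the library term 3 of 10, and without H3WT DMSO 9 of 13 (median -1.55).

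Markers of further cell types were tested in short lists, beside a background of 8.37% higher and 9.72% lower over all genes. These lists held 2 to 5 tested genes, so 1 call puts a share above that background, and the shares are not read as a result. A rare gene can also pass the count filter through the negative cells alone, and it then tends to come out lower. Of 3 osteoblast genes tested 0 were higher and 1 lower (Dmp1), of 5 chondrocyte genes 0 and 2 (Col2a1 and Hapln1, median -0.81), and of 3 tenocyte genes 0 and 2 (Scx and Kera, median -2.54). The osteoblast list summed to 285, 211, 286 and 182 CPM in positive and 334, 214, 264 and 147 CPM in negative cells, with Phex the most abundant gene, and was higher in positive cells in both H3R26C libraries. The chondrocyte list summed to 365, 311, 304 and 187 CPM against 486, 344, 387 and 221 CPM, with Sox9 the most abundant gene and Chad at 0 UMIs in positive cells, and was lower in positive cells in 4 of 4 libraries. The tendon factor Scx was at 0.445, 5.18, 0 and 2.01 CPM against 22.9, 23.0, 11.1 and 32.5 CPM. Neither of the 2 endothelial genes tested was called (median 0.66), the endothelial list summed to at most 8.05 CPM in positive cells with Tek the most abundant, and of 2 blood genes 1 was lower (Cd68, median -0.89), with Adgre1, Cd3e and Hbb-bs at 0 UMIs in positive cells. Of 11 smooth muscle contractile genes, 4 were higher (Tagln, Myl9, Tpm1 and Lmod1) and 3 lower (Acta2, Tpm2 and Des), with a median of 0.21. Without the muscle-gated and adipocyte-gated cells 4 were higher and 1 was lower, and without the library term 0 were called in either direction.

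Cell cycle genes depended on which cells were compared. Of 43 S phase genes 0 were higher and 7 lower (median -0.31), and of 54 G2/M genes 0 and 13 (median -0.22), among them Cdk1 (-0.55), Hmgb2 (-0.84) and Birc5 (-0.62). After thinning, a UMI of Mki67 or Top2a was found in 8.58%, 12.4%, 14.3% and 14.3% of positive cells, against 8.06%, 13.4%, 14.1% and 24.6% of negative cells, so the shares were close in 3 libraries and apart in H3R26C 5-Aza. Without thinning they were 19.3%, 20.5%, 22.4% and 28.6% against 14.4%, 19.7%, 21.9% and 35.4%. Set against the cells between the classes the G2/M list turned, with 14 genes higher and 0 lower (median 0.24), without the cells of the top 5% of UMIs in each library 1 was higher and 2 lower, and with any 1 library left out 7 to 9 were lower. In depth-matched cells 0 of the 54 G2/M genes were higher and 18 lower (median -0.43), and 0 of 42 S phase genes were higher and 13 lower (median -0.46). The S phase list had 1 gene higher and 0 lower against the cells between the classes (median 0.08), 0 called without the top 5% of UMIs (median 0.08), 3 lower without H3WT DMSO or without H3R26C 5-Aza, and 11 lower without H3WT 5-Aza. Of 7 genes of the p53 response and cyclin-dependent kinase inhibitors, 1 was higher (Cdkn1b) and 3 lower (Cdkn1a, Mdm2 and Ccng1), with a median of -0.08. Of 15 genes of the Polycomb repressive complex 2 (PRC2), the DNA methyltransferases and the TET enzymes, Tet3 (0.45) was higher, Ezh1 (-0.65) and Uhrf1 (-0.82) were lower and 12 were not called, with a median of -0.11. Of 6 nuclear-retained RNAs, Meg3 (1.31) was higher and Neat1 (-0.45) lower, with a median of -0.32.

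Cells that met only part of the gate were then described, without a test. Cells with at least 5 UMIs of Eln and none of Colec10 numbered 562, 814, 201 and 235, and cells with at least 2 UMIs of Colec10 and none of Eln 217, 374, 323 and 229. Mfap5 was at 91.0, 179.7, 195 and 91.3 CPM in the former and at 309, 270.0, 242 and 146 CPM in the latter, below the level of positive cells in 4 of 4 libraries in both cases. Pcolce2 was at 307, 306, 329 and 105 CPM with Eln alone and 629.6, 622, 648 and 417 CPM with Colec10 alone, and Smoc2 at 501, 439, 493 and 96.4 CPM and 695, 724, 996 and 451 CPM. Against positive cells, those with Colec10 alone held more Smoc2 in both H3R26C libraries, so this marker was not highest in positive cells throughout. Pcolce2 was slightly higher in them there, at 648 CPM against 625 (604 to 647) and 417 against 366 (329.6 to 406). In H3WT 5-Aza the groups were close, with Smoc2 at 724 CPM against 731 (715 to 747) and Pcolce2 at 622 against 624 (609 to 639). In H3WT DMSO both were lower with Colec10 alone, Pcolce2 at 629.6 CPM against 646 (636 to 656). The intervals are exact Poisson 95% intervals of the positive cells, for counting error only. All 3 markers were higher in the cells chosen by Colec10 than in those chosen by Eln in 4 of 4 libraries. Just inside and outside the Eln threshold, among cells with at least 2 UMIs of Colec10, those with exactly 5 UMIs of Eln held Mfap5 at 419.6, 379.5, 498 and 135 CPM and those with 4 at 374, 429, 413 and 324 CPM. At the Colec10 threshold, among cells with at least 5 UMIs of Eln, cells with 2 UMIs held it at 219, 414, 312 and 448 CPM and cells with 1 at 175, 315, 404 and 238 CPM, so the direction differed between libraries at both thresholds. In H3R26C 5-Aza these values rest on 9 and 5 cells at the Eln threshold and on 10 and 33 at that of Colec10, and without that library the direction at both thresholds still differed among the others.

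**Figure D5:**
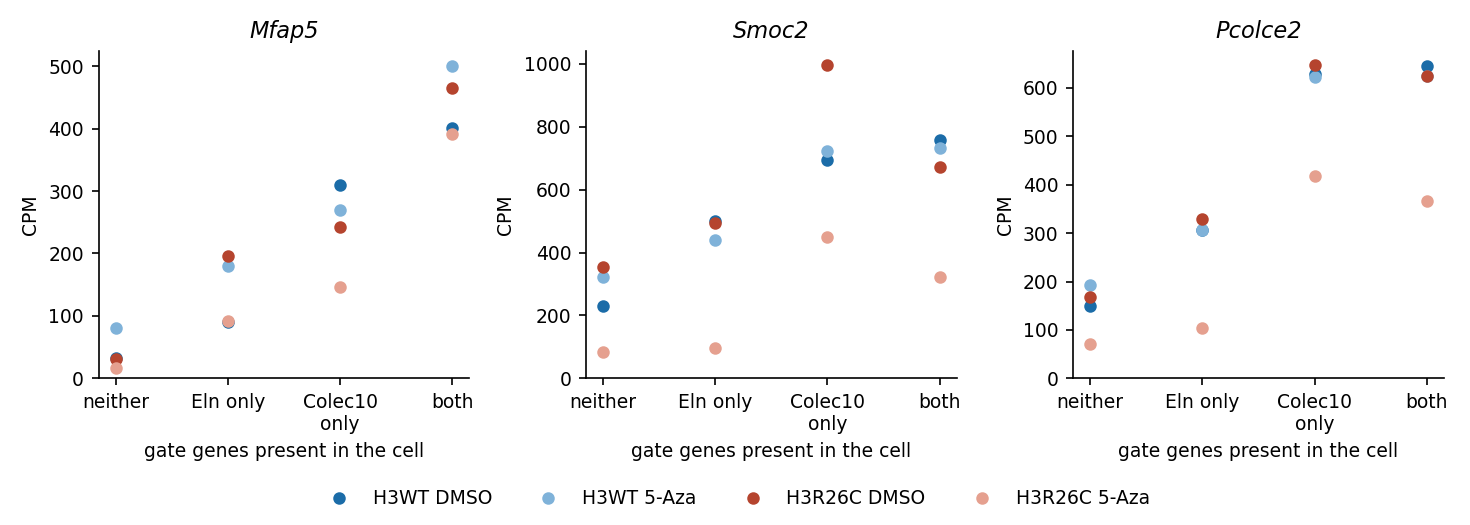
Level in CPM (y axis) of Mfap5, Smoc2 and Pcolce2 in cells with neither gate gene, with at least 5 UMIs of Eln only, with at least 2 UMIs of Colec10 only, and with both (x axis), 1 point per library. Cells with Colec10 only lie above cells with Eln only in every library and for all 3 genes, and the cell groups differ in depth.

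Positive cells also varied among themselves. They were divided into 3 groups of near equal size by their Eln CPM within each library, which uses Eln again, so the values are a description. Lox was at 886, 982, 1106 and 1302 CPM in the lowest tertile and 1399, 1843, 1782 and 3489 CPM in the highest, and Fbln5 at 1249.6, 1308, 1268 and 1766 CPM and 1936, 2206, 2313 and 2859 CPM. Both were higher in the highest tertile in 4 of 4 libraries, as was Fos, at 732, 492, 453 and 73.3 CPM and 1075, 711, 755 and 291 CPM. Ly6a went the other way, from 974, 1745, 840.2 and 3219 CPM in the lowest to 445, 822, 609 and 1472 CPM in the highest tertile. Colec10 did not follow Eln within the gate, at 433, 376, 367 and 314 CPM in the lowest and 370.5, 404, 471 and 372 CPM in the highest tertile, higher in 3 of the libraries and lower in H3WT DMSO. The lowest tertile had the highest median depth in each library, and the tertiles of H3R26C 5-Aza hold 21 cells each.

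Between conditions, the positive cells of each library were compared as summed CPM, with a pseudocount of 1 CPM on the log2 scale, over genes averaging 10 CPM or more across the libraries compared. There is no replicate of a condition, so these values carry no test, and the intervals are exact Poisson 95% intervals for counting error. The gate is a fixed count, met at a lower CPM in deeper cells, and it took from 25.1% of cells in H3WT DMSO to 0.827% in H3R26C 5-Aza. In H3WT, 5-Aza over DMSO left 1.41% of 8419 genes more than 2-fold higher and 0.178% lower. The highest ratios were those of the muscle genes Ttn, Acta1, Mylpf and Myl1 and of Plac8, with Ttn at 241 CPM (232 to 251) against 0.324 CPM (0.14 to 0.638). The 4 muscle genes were farther apart in negative cells, where Ttn was at 1696 CPM and 0.238 CPM, and 9 of the 694 positive cells were muscle-gated. The share of free RNA in these counts was not tested. The lowest ratios were those of Fosb, Cib3, Klf2, Btg2 and Nr4a1, with Fosb at 36.8 CPM (33.3 to 40.6) against 110.2 CPM (106 to 114). Mfap5, Smoc2 and Pcolce2 stayed within 0.32 on the log2 scale (0.32, -0.05 and -0.05), while Eln, which the gate bounds from below, was at 1722 CPM (1698 to 1747) against 858 CPM (847 to 869.7). Positive cells held 14733 UMIs at the median with 5-Aza and 25592 with DMSO, so that lower bound of Eln is a higher CPM with 5-Aza. The part of this in the Eln values was not tested.

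In H3R26C, 5-Aza over DMSO gave 3.18% of 8480 genes more than 2-fold higher and 3.49% lower, where the 63 cells with 5-Aza limit the precision. Besides Acta1 and Ttn, the highest ratios were those of Sfrp4, a secreted Wnt modulator, at 271 CPM (239 to 305) against 2.95 CPM (1.65 to 4.87), of Ndufa4l2 and of Plac8. Sfrp4 was at 56.2 CPM and 1.20 CPM in the negative cells of these libraries. The lowest were Fosb, Tgfbr1, Fos, Id2 and Btg2, with Fos at 147 CPM (124 to 173) against 607 CPM (585 to 628). Smoc2 was at 322 CPM (288 to 359) against 672 CPM (649.8 to 695) and Pcolce2 at 366 CPM (329.6 to 406) against 625 CPM (604 to 647), both lower also in negative cells. Spp1 was at 793 CPM (739 to 850.3) against 70.1 CPM (63.0 to 77.7), and Ly6a at 2760.4 CPM (2658 to 2866) against 771 CPM (747 to 796). Of 17 interferon-stimulated genes 13 were more than 2-fold higher (median log2 ratio 3.16, against 2.29 in negative cells and -0.05 over all genes), with Ifi27l2a at 433 CPM (393 to 476) against 32.9 CPM (28.1 to 38.3). In H3WT the same list had 5 of 13 past 2-fold at a median of 0.88.

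With DMSO, H3R26C over H3WT gave 1.04% of 8423 genes more than 2-fold higher and 0.131% lower. The highest ratios were those of Igsf10, of the imprinted genes H19, Igf2 and Sgce, and of Pi15. H19 was at 203 CPM (191 to 216) against 40.9 CPM (38.4 to 43.5) and Igf2, its neighbour encoding insulin-like growth factor 2, at 65.0 CPM (58.1 to 72.4) against 15.1 CPM (13.6 to 16.8). In negative cells these genes were at 27.2 and 13.0 CPM for H19 and at 11.6 and 4.52 CPM for Igf2, in the same direction. The lowest were Gpm6b, Capn6, Thy1, Slc9a3r1 and Aqp5, with Thy1 at 68.7 CPM (61.7 to 76.3) against 138 CPM (134 to 143). Mfap5, Smoc2 and Pcolce2 differed by 0.21, -0.18 and -0.05 on the log2 scale. Of 42 G2/M genes 16 were more than 2-fold higher and 0 lower, at a median of 0.93 in positive and 0.51 in negative cells, among them Mki67, Top2a and Cdk1. The difference in Top2a lay mainly in the lowest Eln tertile, at 261 CPM in H3R26C against 37.1 CPM in H3WT. It was at 59.4 against 73.7 CPM in the middle tertile and at 97.6 against 69.5 CPM in the highest. Of 28 S phase genes 7 were more than 2-fold higher and 0 lower, at a median of 0.59 in positive and 0.10 in negative cells, beside a median of 0.05 over all genes. Without cells holding a UMI of Mki67 or Top2a, the share of genes past 2-fold in either direction was 0.759% in place of 1.18%.

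With 5-Aza, H3R26C over H3WT gave 1.79% of 8443 genes more than 2-fold higher and 1.91% lower. Apart from Sprr1a, the highest ratios belonged to interferon-stimulated genes, namely Ifi27l2a, Usp18, Ifit3b and Isg15, with Isg15 at 448 CPM (407 to 491) against 80.7 CPM (75.4 to 86.3). Of 17 genes of that list 12 were more than 2-fold higher, at a median of 2.01 in positive and 1.97 in negative cells. The lowest ratios were those of Dlk1, Fos, Mustn1, Capn6 and Dpt, with Dlk1, an inhibitor of adipocyte differentiation, at 18.1 CPM (10.7 to 28.6) against 81.8 CPM (76.5 to 87.4). Of 16 immediate early genes 6 were more than 2-fold lower, at a median of -0.92 in positive and -1.12 in negative cells. Smoc2 was at 322 CPM (288 to 359) against 731 CPM (715 to 747), and Mfap5 and Pcolce2 were lower by 0.35 and 0.77 on the log2 scale. These contrasts share libraries with each other, so their values stand side by side and were not combined.

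Whether the difference between positive and negative cells itself depended on treatment or genotype was tested over the 4 libraries as an interaction in edgeR. By treatment, 6 of 12770 genes had a higher ratio with 5-Aza (0.047%) and 19 a lower one (0.149%), while 670 passed an unadjusted p of 0.05. By genotype, 0 genes were called in either direction (0%), and 741 passed an unadjusted p of 0.05, with edgeR the only tool run for these terms. With 2 libraries on each side the interaction test has few degrees of freedom, and a gene that was not called is not shown to be alike between the conditions.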

How the data were processed

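RNA of single cells from 4 droplet (10x) libraries was measured, and the authors deposited UMI counts per gene and barcode, made with Cell Ranger 6.1.0 per the file headers against GRCm38. The submitters' processing notes name Cell Ranger 6 and Seurat 4. The members and gene lists were chosen with earlier results of these data known. Cells with at least 5000 UMIs, at least 1500 genes and at most 20% mitochondrial UMIs were kept, and no doublets were removed. Counts were summed per library and class and tested with edgeR 4.0.16 (TMM, quasi-likelihood, library as a term, Benjamini-Hochberg adjustment) over genes with at least 10 counts in at least 4 of 8 sums, leaving out Eln and Colec10. No source names separate cultures, so p-values measure the spread among these 4 libraries, which differ in condition. Library totals of kept cells were 86871326, 84345500, 84060490 and 110712425 UMIs, in the order of the text. Intervals are exact, at 95%, and cover counting error only.

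The genes named were the markers, the 10 highest and 10 lowest ratios among called genes with the same sign in 4 libraries and at least 50 CPM in a class, up to 4 abundant members of each list, and, between conditions, the 5 highest and 5 lowest ratios with at least 50 CPM in a library. Other list members were named because they were called, after their values were seen, and further genes carried from these into later comparisons likewise. Some genes that the rule or a list would name are not reported here. The symbol Ddit3 belongs to 2 identifiers, of which the first was used. Cell cycle genes came from Seurat 5.3.0. Alternatives used DESeq2 1.42.0, no TMM factors, no count filter, no library term, depth-matched cells, other gates and comparison cells, and each library left out. On simulated counts for 12617 genes, the test of positive against negative cells recovered 88% of genes set 1.5-fold higher, 98% of those set 2-fold higher, 100% of those set 4-fold higher and 88% of those set 0.5-fold, and called 0.153% of unchanged genes. The changed genes averaged at least 50 counts, so recovery of sparser genes was not measured. Counts were drawn from a negative binomial with dispersions fitted to these data, and no gate was simulated.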

Additional observations from a re-analysis of the deposited data

Results flagged for a closer look

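The log2 ratio of positive over negative cells differed between 5-Aza and DMSO libraries for 6 genes with a higher and 19 with a lower ratio with 5-Aza, by the interaction test of edgeR with Benjamini-Hochberg adjustment over 12770 genes. The genes given here are those among them that the naming rule gave for the classes or the conditions, or that were called or among the 4 most abundant members in one of the gene lists. Differences are given as 5-Aza minus DMSO, and the 4 values follow the order H3WT DMSO, H3WT 5-Aza, H3R26C DMSO and H3R26C 5-Aza. H19, an imprinted long noncoding RNA, was at 40.9, 93.6, 203 and 193 CPM in positive and 13.0, 226, 27.2 and 299.5 CPM in negative cells, a difference of -3.38 (adjusted p = 0.00674). It was thus higher in positive cells with DMSO and lower with 5-Aza, in both genotypes. Dlk1, likewise imprinted, changed side in the same way, at 73.5, 81.8, 55.9 and 18.1 CPM against 34.2, 112, 12.6 and 27.8 CPM (-2.07, adjusted p = 0.0269), as did Mustn1, a musculoskeletal gene, at 81.2, 95.2, 77.0 and 24.2 CPM against 49.4, 166, 51.6 and 62.5 CPM (-1.58, adjusted p = 0.0155).

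Igfbp2, which encodes a binding protein of insulin-like growth factors, was at 17.5, 73.3, 12.6 and 35.2 CPM in positive and 0.357, 22.9, 0.063 and 28.4 CPM in negative cells, a difference of -5.44 (adjusted p = 0.0155), so the classes were farther apart with DMSO. The negative cells of the DMSO libraries held 3 and 2 UMIs of Igfbp2, so the size of its difference is imprecise. For Cyp2f2 the difference was 1.66 (adjusted p = 0.0285), with a smaller gap between the classes with 5-Aza. The positive cells of H3R26C DMSO and H3R26C 5-Aza held 9 and 4 UMIs of Cyp2f2, so the change of gap is imprecise in that genotype. Gm26917 was at 165, 122, 135 and 91.6 CPM against 209, 559.8, 146 and 223 CPM (-1.62, adjusted p = 0.0294). Col8a1 had no UMI in the positive cells of either DMSO library and was at 0, 28.0, 0 and 47.3 CPM against 1.19, 59.7, 5.98 and 116 CPM, so its fitted difference of 7.32 (adjusted p = 0.0289) depends on the prior count and is not a fold. The muscle genes Mylpf (-5.46, adjusted p = 0.0155), Tnnc1 (-2.74, adjusted p = 0.00674) and Tnnt3 (-3.62, adjusted p = 0.0155) were met as well, with Mylpf at 14 and 5 UMIs in the positive and 0 and 7 in the negative cells of the DMSO libraries. Muscle-gated cells occurred with 5-Aza alone, and their part in these differences was not tested.

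Barcodes below the cell filter were not analysed otherwise, and 12 of 9009 of them met the gate in H3WT 5-Aza (0.133%), against 0 of 2529 in H3WT DMSO, which allows up to 0.119%, 0 of 1813 in H3R26C DMSO, which allows up to 0.165%, and 1 of 4491 in H3R26C 5-Aza (0.0223%).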

How the results depend on the processing

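Replicates could not be paired across conditions, which have 1 library each, while the library term pairs the classes. No alternative called more than 1 shared gene in the opposite direction. The count of higher genes was 189 and of lower genes 172 without the library term, 564 and 772 against all cells that were not positive, 677 and 777 with the gate applied after thinning, and 570 and 686 against the cells between the classes, a comparison added after seeing the data. Lower genes were 1946 without the count filter and 822 without cells holding a UMI of Mki67 or Top2a. Leaving out 1 library gave 733 (without H3WT 5-Aza) to 822 higher and 773 (without H3WT 5-Aza) to 974 lower genes. Of the marker ratios, Smoc2 without the library term was 1.37 and not called (edgeR adjusted p = 0.138), and the other 47 of 48 values kept direction and call, at sizes that fell as low as 0.38 for Smoc2 against the cells between the classes. Among 18 further named genes 277 of 285 values did so and 7 lost the call, 5 of them without the library term. The remaining 1 reversed, Acta1 at 0.17 without muscle-gated and adipocyte-gated cells, of which the former were gated on a list that holds Acta1.

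The share of positive cells was 3.61%, 3.12%, 0.804% and 0.184% after thinning, 12.8%, 4.39%, 2.18% and 0.276% with a gate of 10 and 4 UMIs, and 13.4% in H3WT 5-Aza with a stricter cell filter. Genes past 2-fold in either direction in positive cells were 6.67% for H3R26C 5-Aza over DMSO, and 4.42% with a pseudocount of 5 CPM, 4.21% at 50 CPM or more and 19.3% with the gate after thinning. For H3R26C over H3WT with DMSO they were 1.18%, and in the same order 0.617%, 0.434% and 3.41%, with 0.759% without Mki67 or Top2a cells. With 5-Aza they were 3.70%, and 2.35%, 2.23% and 16.1%. The gate after thinning leaves 14 cells in H3R26C 5-Aza, so its values in that setting rest on few cells.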
